A study of Mus musculus with 4 samples.

Results

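The 9 genes described here, Nphs1, Kirrel, Cd2ap, Tjp1, Magi2, Trpc6, Podxl, Ptpro and Plce1, were taken as a named list of slit diaphragm genes from the 55488 genes counted in 4 single-cell libraries of mouse glomeruli. The rule that lists them uses no measured value, but the list was chosen with earlier results of these data known. Each library was made from 1 group: WT and AS at 5 weeks of age, and WT and AS at 8 weeks. AS stands for Alport mice of the Col4a5 G5X model, a germline lesion of the type IV collagen chain Col4a5 that is not limited to one cell type, and WT stands for wild type. Strain, sex and the number of animals pooled into a library are not given in the sources used here. The design text describes the mice at 5 weeks as free of proteinuria and of structural change, and those at 8 weeks as mildly proteinuric, with abnormal basement membrane and podocyte structure. The tissue label names embryonic kidney glomeruli, whereas the titles give ages of 5 and 8 weeks. With 1 library per group, genotype, animal and library cannot be told apart and no test between groups was possible. All intervals below are 95% intervals and cover counting error only.

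The slit diaphragm is the cell junction that bridges neighbouring podocyte foot processes and forms the last layer of the glomerular filter. Its backbone is built from the immunoglobulin-family proteins nephrin, encoded by Nphs1, and Neph1, encoded by Kirrel, whose extracellular parts meet in the slit. Inside the foot process, the adaptor Cd2ap and the scaffolds Tjp1 (ZO-1) and Magi2 hold the complex to the actin skeleton. Trpc6 is a calcium channel of the complex, and Plce1 is a phospholipase C that takes part in podocyte signalling. Podxl encodes podocalyxin, the sialoprotein that gives the apical foot process surface its negative charge, and Ptpro encodes a receptor tyrosine phosphatase of the same apical membrane. Inherited defects of several of these genes cause nephrotic syndrome in people.

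In GRCm38, with the gene models of GENCODE M21, the backbone genes are Nphs1 at chr7:30458315-30487223 on the plus strand and Kirrel at chr3:87078593-87174747 on the minus strand. The adaptor and scaffold genes are Cd2ap at chr17:42792951-42876665 on the minus strand, Tjp1 at chr7:65296165-65527781 on the minus strand and Magi2 at chr5:19227036-20704792 on the plus strand. The channel and phospholipase genes are Trpc6 at chr9:8544142-8680741 on the plus strand and Plce1 at chr19:38481109-38785030 on the plus strand. The apical genes are Podxl at chr6:31519488-31563981 on the minus strand and Ptpro at chr6:137252319-137463233 on the plus strand. Magi2 is the longest of the 9, with a span of 1478 kb of which 0.768% is exonic, against 28.9 kb and 22.9% for Nphs1. Nphs1 has an annotated antisense gene, Nphs1os, on its other strand, and whether the counting used strand or introns is not given in the sources used here.

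Of the 9 genes, 8 had a RefSeq promoter window of 300 bases, 250 before the transcription start and 50 after it, in GRCm38.p6. The windows of 4 genes are shown because the levels described further on separate them: Nphs1 and Ptpro were counted at a low share of their podocyte level in endothelial and mesangial cells, close to that of podocyte markers, whereas Tjp1 and Cd2ap were counted there at a large share of it. The RefSeq starts of Nphs1, Tjp1 and Plce1 lie inside the longer GENCODE spans. Each window is written 5′ to 3′ on the gene's strand, with CG dinucleotides in capitals.
Nphs1, chr7:30459808-30460107, plus strand: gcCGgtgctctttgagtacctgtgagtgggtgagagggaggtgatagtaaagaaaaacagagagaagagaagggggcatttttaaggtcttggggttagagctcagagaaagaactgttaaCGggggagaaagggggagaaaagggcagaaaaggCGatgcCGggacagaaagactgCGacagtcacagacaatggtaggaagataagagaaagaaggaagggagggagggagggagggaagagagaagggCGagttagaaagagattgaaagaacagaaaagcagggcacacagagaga
Ptpro, chr6:137252049-137252348, plus strand: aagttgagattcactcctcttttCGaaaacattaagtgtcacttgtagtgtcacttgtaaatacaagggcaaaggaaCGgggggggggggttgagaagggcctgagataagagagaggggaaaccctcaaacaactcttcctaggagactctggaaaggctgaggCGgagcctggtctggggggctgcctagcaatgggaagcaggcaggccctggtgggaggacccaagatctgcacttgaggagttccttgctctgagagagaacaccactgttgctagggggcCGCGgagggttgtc
Tjp1, chr7:65371195-65371494, minus strand: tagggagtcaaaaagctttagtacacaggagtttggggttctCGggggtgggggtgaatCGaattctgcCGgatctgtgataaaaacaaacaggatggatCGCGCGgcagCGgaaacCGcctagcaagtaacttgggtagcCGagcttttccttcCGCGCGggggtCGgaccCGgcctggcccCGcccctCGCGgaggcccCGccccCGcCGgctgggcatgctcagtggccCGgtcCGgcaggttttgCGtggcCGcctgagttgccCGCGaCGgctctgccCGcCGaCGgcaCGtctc
Cd2ap, chr17:42876375-42876674, minus strand: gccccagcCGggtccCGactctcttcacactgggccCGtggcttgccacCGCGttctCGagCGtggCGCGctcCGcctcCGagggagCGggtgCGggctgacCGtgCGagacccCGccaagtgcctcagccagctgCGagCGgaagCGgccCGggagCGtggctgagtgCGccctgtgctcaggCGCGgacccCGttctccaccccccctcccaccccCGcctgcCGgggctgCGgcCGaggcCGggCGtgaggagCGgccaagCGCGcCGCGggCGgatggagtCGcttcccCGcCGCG
The Nphs1 window holds 6 CG dinucleotides and the Ptpro window 5, against 31 in Tjp1 and 41 in Cd2ap. Over 32851 windows of 27025 genes the median was 7, with quartiles of 3 and 20, so the first pair lies near the middle and the second pair above the upper quartile. Plce1 had 8 and Kirrel 28, and Trpc6 had 17. Magi2 has a pair of RefSeq windows, with 29 and 4. It was also counted at a low share of its podocyte level in endothelial and mesangial cells. Its window with 29 thus departs from the contrast between the 4 genes shown, which were picked by their levels. The Nphs1 and Tjp1 windows hold no CANNTG (the E-box letters, the same on both strands), whereas the Ptpro window holds 3 and the Cd2ap window 2. Of all windows, 72.3% hold at least 1. GGGCGG, searched on both strands, was found in the Tjp1 and Cd2ap windows but not in those of Nphs1 and Ptpro, and 35.7% of all windows hold it. The Kirrel window and the Magi2 window with 4 CG also hold it.

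Wherever 4 values follow each other without labels, their order is WT at 5 weeks, AS at 5 weeks, WT at 8 weeks and AS at 8 weeks. The libraries held 6604, 7544, 7489 and 7963 barcodes. Their totals were 74356581, 96045236, 79595446 and 126118422 unique molecular identifiers (UMIs, 1 per captured transcript). After filtering and doublet removal, 5566, 6448, 6106 and 6813 cells were kept. Any pair of libraries shared 13 to 18 barcodes. Podocyte-like clusters were named from 12 podocyte markers, none of them among the 9 genes, and all 12 were detected in this class in each library. Summed, they were at 24865, 25506, 25102 and 23747 CPM there, against 45.6, 62.5, 38.7 and 77.5 for 8 mesangial markers and 105, 103, 59.1 and 94.7 for 10 glomerular endothelial markers (CPM, counts scaled to a common library total, is described with the levels). The class held 1695, 1556, 2787 and 2414 cells and 27347746, 32946286, 39453473 and 61666933 UMIs. Its median cell had 15988, 17491, 14184 and 20096.5 UMIs, so AS cells were deeper than WT cells at both ages. The WT library at 8 weeks stood apart in 2 ways: 30.6% of its cells stayed in unnamed clusters, against 6.95 to 8.32% in the other libraries, and most of its other cell classes held more podocyte RNA. Over the 12 podocyte markers, the median level in glomerular endothelial-like cells was 5.61% of the podocyte-like level in that library and 1.23 to 2.63% in the others. In its 35 B, T and NK-like cells the median was 27%. Myeloid-like cells went the other way, with medians of 3.33, 4.23, 2.21 and 15.8%.

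Nphs1, the nephrin gene, was lower in AS than in WT podocytes at 8 weeks but not at 5 weeks. Levels are given as CPM, a gene's UMIs summed over the podocyte-like cells of a library and scaled to a common total of all their UMIs. They are UMI counts from a 3′ kit that were not divided by length, so levels are not ranked between genes. Whether they include reads in introns is not known here, which bears most on long genes such as Magi2. Nphs1 stood at 2709 CPM (WT, 5 weeks), 2689.9 (AS, 5 weeks), 2824 (WT, 8 weeks) and 2136 (AS, 8 weeks). The AS library at 8 weeks was the low one, and the other 3 lay close to each other. On the scale of log2 ratios of CPM + 5, used for every ratio below, AS over WT was -0.01 (-0.02 to 0.00) at 5 weeks and -0.40 (-0.41 to -0.39) at 8 weeks. The value at 5 weeks had no stable sign, at 0.0021 with median-of-ratios scaling and 0.0051 with free RNA subtracted, and the value at 8 weeks was -0.19 with free RNA subtracted. Its partner in the slit, Kirrel, stood at 311 CPM (WT, 5 weeks), 272 (AS, 5 weeks), 304 (WT, 8 weeks) and 282 (AS, 8 weeks). Both AS libraries lay below both WT libraries, with log2 ratios of -0.19 (-0.23 to -0.15) and -0.11 (-0.14 to -0.07), the latter turning to 0.20 with free RNA subtracted.

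Among the adaptor and scaffold genes, Magi2 differed by the largest amount and Tjp1 by the smallest. Magi2 stood at 34546 CPM (WT, 5 weeks), 27508 (AS, 5 weeks), 34118 (WT, 8 weeks) and 24818 (AS, 8 weeks), which is 3.45, 2.75, 3.41 and 2.48% of all podocyte-like UMIs. The WT libraries lay together and both AS libraries below them, with AS over WT at -0.33 (-0.33 to -0.32) for the younger and -0.46 (-0.46 to -0.46) for the older mice. The latter was -0.18 in cells of low immediate-early share and -0.26 as a mean of each cell's own CPM. Cd2ap stood at 919.6 CPM (WT, 5 weeks), 833 (AS, 5 weeks), 879 (WT, 8 weeks) and 760.0 (AS, 8 weeks), again with both AS libraries below both WT libraries, at -0.14 (-0.17 to -0.12) and -0.21 (-0.23 to -0.19), the latter turning to 0.05 with free RNA subtracted. Tjp1, the ZO-1 scaffold that many epithelia and endothelia use, stood at 945 CPM (WT, 5 weeks), 918 (AS, 5 weeks), 926 (WT, 8 weeks) and 899 (AS, 8 weeks). Its log2 ratio was -0.04 at 5 weeks and -0.04 at 8 weeks, and the latter turned to 0.05 when libraries were scaled by the median of gene-wise ratios and to 0.23 with free RNA subtracted.

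The apical genes and the phospholipase were lower in AS at both ages and lower at 8 than at 5 weeks in both genotypes. Podxl stood at 5165 CPM (WT, 5 weeks), 4460.0 (AS, 5 weeks), 4075 (WT, 8 weeks) and 3221 (AS, 8 weeks). Here the 4 libraries descend in that order, so that AS at 5 weeks lay above WT at 8 weeks, and age and genotype differed by like amounts: AS over WT was -0.21 and -0.34, and 8 over 5 weeks was -0.34 in WT and -0.47 in AS. Because of that difference with age, AS at 5 weeks over WT at 8 weeks was 0.13. Ptpro stood at 2899 CPM (WT, 5 weeks), 2306 (AS, 5 weeks), 2549.5 (WT, 8 weeks) and 1976 (AS, 8 weeks). Its log2 ratios of AS over WT were -0.33 (-0.34 to -0.32) and -0.37 (-0.38 to -0.35), against -0.18 between the WT libraries of 8 and 5 weeks. Plce1 stood at 1146 CPM (WT, 5 weeks), 916 (AS, 5 weeks), 1015 (WT, 8 weeks) and 779 (AS, 8 weeks), with -0.32 (-0.35 to -0.30) and -0.38 (-0.40 to -0.36), against -0.17 between the WT libraries. With free RNA subtracted, the ratios at 8 weeks were -0.14 for Podxl, -0.02 for Ptpro and -0.10 for Plce1, and in cells of low immediate-early share Ptpro was at -0.18 and Plce1 at -0.19.

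Trpc6, the calcium channel, was close to absent from podocyte-like cells. It had 22, 83, 23 and 169 UMIs there, which is 0.804, 2.52, 0.583 and 2.74 CPM. All 4 values lie under the floor used for counting differences (30 UMIs and 20 CPM in at least 1 of the 2 libraries compared), and its fitted ratios are not described as a difference. A Trpc6 UMI was seen in 1.0, 3.02, 0.574 and 4.52% of podocyte-like cells. After every cell was thinned to 5000 UMIs, which left out 181, 136, 341 and 228 shallower cells, the shares were 0.33, 0.704, 0.164 and 1.1%.

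**Figure D1:**
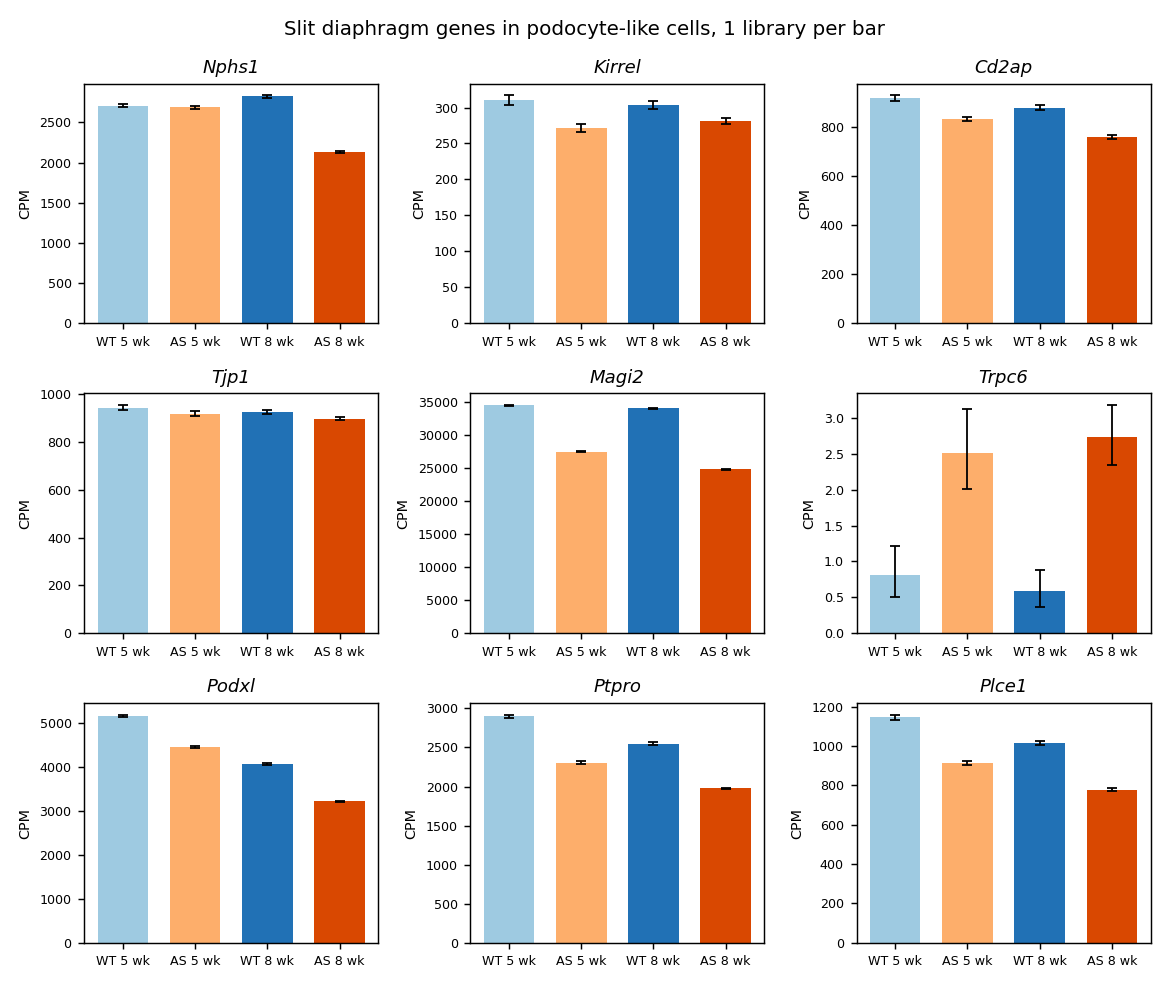
Level of each of the 9 genes in podocyte-like cells, in CPM on an axis from 0, with 1 bar per library and exact Poisson 95% intervals. The AS library at 8 weeks is the lowest bar for Nphs1, Cd2ap, Tjp1, Magi2, Podxl, Ptpro and Plce1, whereas Trpc6 stays below 3 CPM in all 4.

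Counted together, 8 of the 9 genes passed the floor in podocyte-like cells and none of the 8 was past 1.5-fold between AS and WT at either age. Over all genes that passed the floor, 3.65% of 6795 were past 1.5-fold at 5 weeks and 7.33% of 6955 at 8 weeks. The median log2 ratio over these 8 was -0.20 at 5 weeks and -0.35 at 8 weeks (-0.19 and -0.34 with Trpc6), beside -0.003 and -0.039 over all genes tested. The ratio was below 0 for all 8 at each age, although for Nphs1 at 5 weeks the counting interval reached 0 and the sign turned as given above. Between the WT libraries of 8 and 5 weeks, where 2.33% of 6853 genes were past 1.5-fold, the median of the 8 was -0.048, beside 0.053 over all genes tested, with Podxl, Ptpro and Plce1 lowest. Between the AS libraries of both ages, with 3.02% of 6751 genes past 1.5-fold, it was -0.19. Set against WT of the other age, the median over all 9 genes was -0.077 at 5 weeks and -0.34 at 8 weeks, and Podxl was then past 1.5-fold at 8 weeks. With free RNA subtracted, as estimated from the B, T and NK-like cells (only 35 in WT at 8 weeks, rich in podocyte markers as given above), the median of the 9 at 8 weeks was -0.018, and with median-of-ratios scaling it was -0.24. These comparisons share libraries and are not independent of each other.

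**Figure D2:**
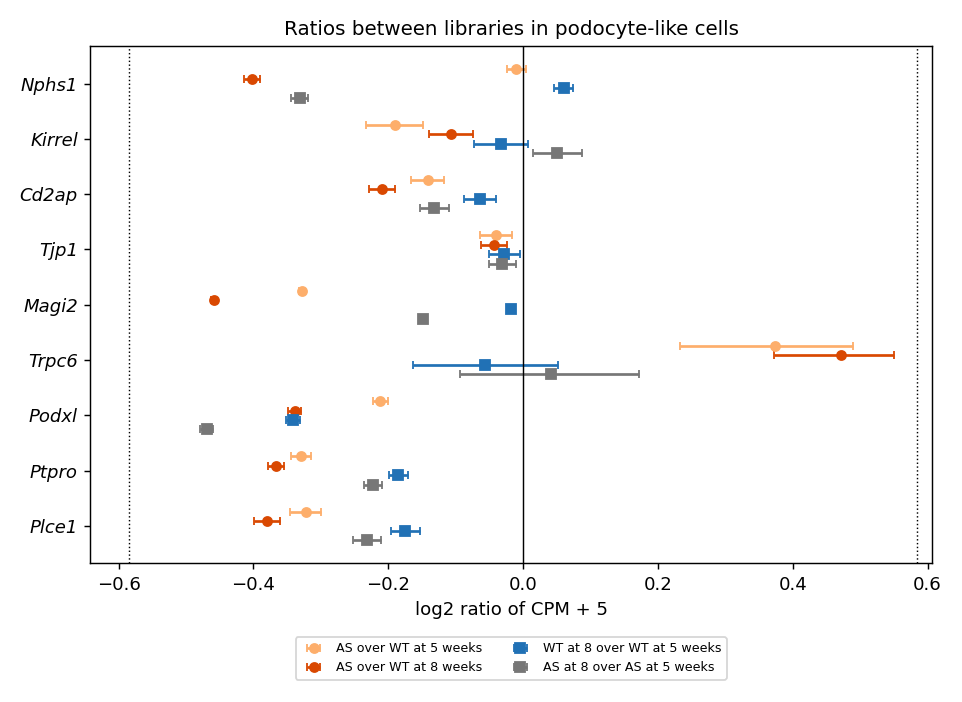
Log2 ratio of CPM + 5 for each gene in podocyte-like cells (x axis) in 4 comparisons of 2 libraries each, with 95% intervals for counting error; dotted lines mark 1.5-fold. Magi2, Ptpro and Plce1 lie left of -0.3 in both AS over WT comparisons, Tjp1 lies near 0 in all 4, and Nphs1 is near 0 at 5 weeks and at -0.40 at 8 weeks.

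A ratio of CPM is relative to the rest of the cell's RNA, and the unscaled mean counts went the other way. Mean UMIs per podocyte-like cell were higher in AS at both ages for all 8 genes above the floor. At 5 weeks, however, the median AS cell held fewer UMIs of Magi2, Podxl, Ptpro and Plce1 than the median WT cell. At 8 weeks the mean podocyte-like cell held 40 Nphs1 UMIs (WT) and 54.6 (AS), and 483 and 634 Magi2 UMIs. Median depth was 14184 and 20096.5 UMIs in those cells, and sequencing depth and RNA content per cell cannot be told apart here. Malat1, a nuclear long noncoding RNA, was lower in AS at each age, as Magi2 was, but also lower in WT at 8 than at 5 weeks, where Magi2 differed little. Podocyte-like cells had 41025 CPM of it (WT, 5 weeks), 35924 (AS, 5 weeks), 36153 (WT, 8 weeks) and 25426 (AS, 8 weeks). It was also lower in AS at 8 weeks in endothelial-like cells (32355 in WT, 23486 in AS) and mesangial-like cells (31264 and 21498 CPM). At 8 weeks the mitochondrial share of podocyte-like UMIs was 2.58% for WT and 2.15% for AS. The part of these in the ratios was not tested. With mitochondrial, ribosomal protein, Malat1 and Magi2 UMIs taken out of the total, which shifts all genes alike, the median of the 9 genes at 8 weeks was -0.38.

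The podocyte-like class was made of different clusters in different libraries, and the 8 genes split by how they varied among them. Most WT cells were in cluster 5 at 5 weeks (1410 cells) and cluster 3 at 8 weeks (2346), whereas AS cells were mainly in clusters 4 and 5 at 5 weeks (845 and 562) and clusters 4 and 8 at 8 weeks (1328 and 938). Cluster 8 was led by Xkr4, Igfbp2 and Prss23, held 1 and 7 WT cells, and had 10809 CPM of a 19-gene list of podocyte injury genes in AS at 8 weeks, against 5474 in cluster 4 of the same library. The 9 genes were left out when cells were clustered, but genes that vary with them were not, so these values are a description.

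In the AS library at 8 weeks, Magi2 stood at 30402 CPM in cluster 4 and 19925 in cluster 8, and at 5 weeks cluster 8 was as low, at 19593. Ptpro showed the same order, with 2213 and 1769 CPM at 8 weeks, as did Plce1, with 882 and 689. Nphs1 was at 2306 and 1991 CPM. Podxl, by contrast, varied little among clusters 3, 4, 5 and 8 of a library: it was at 3168, 3325, 3109 and 3136 CPM in these clusters of AS at 8 weeks, and at 4942 and 5197 in clusters 4 and 5 of WT at 5 weeks. Tjp1 and Kirrel stayed near 931 and 287 CPM in cluster 4 and at 873 and 276 in cluster 8.

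Within a cluster shared by both genotypes, the AS over WT ratios at 8 weeks were smaller for some genes and not for others. In cluster 4 at 8 weeks, with 200 WT and 1328 AS cells, Magi2 was at 0.05, Ptpro at -0.08, Plce1 at -0.17, Nphs1 at -0.25 and Podxl at -0.25. In cluster 3 (2346 WT and 53 AS cells) and cluster 5 (149 and 57), Magi2 was at 0.08 and 0.21, Nphs1 at -0.18 and -0.27, and Podxl at -0.36 and -0.50. Nphs1 and Podxl were therefore lower in AS in all 3 clusters at 8 weeks, whereas Magi2 was lower in none of them. The AS cells of clusters 3 and 5 were shallow at that age, with medians of 8604 and 4408 UMIs, against 14284 and 11811 in WT. In cluster 4 the medians were 18179 in AS and 18292.5 in WT. The part of depth in these ratios was not tested. The median over the 8 genes above the floor was 0.052 in cluster 3, with 3 of 8 below 0, -0.058 in cluster 4, with 6 of 8, and -0.076 in cluster 5, with 5 of 8. At 5 weeks the order was different: in clusters 4 (71 WT and 845 AS cells) and 5 (1410 and 562), Magi2 was at -0.19 and -0.29, Ptpro at -0.33 and -0.33, Plce1 at -0.27 and -0.37, and Nphs1 at -0.02 and 0.00. A further podocyte-like cluster, number 17, had shallow cells (median 1351 to 2501 UMIs) and little Magi2, 2357 to 5859 CPM. Podxl there was higher than in the other clusters in WT, at 6543 and 5772 CPM at 5 and 8 weeks. Without cluster 17 the medians of the 9 genes were -0.19 at 5 weeks and -0.34 at 8 weeks.

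**Figure D3:**
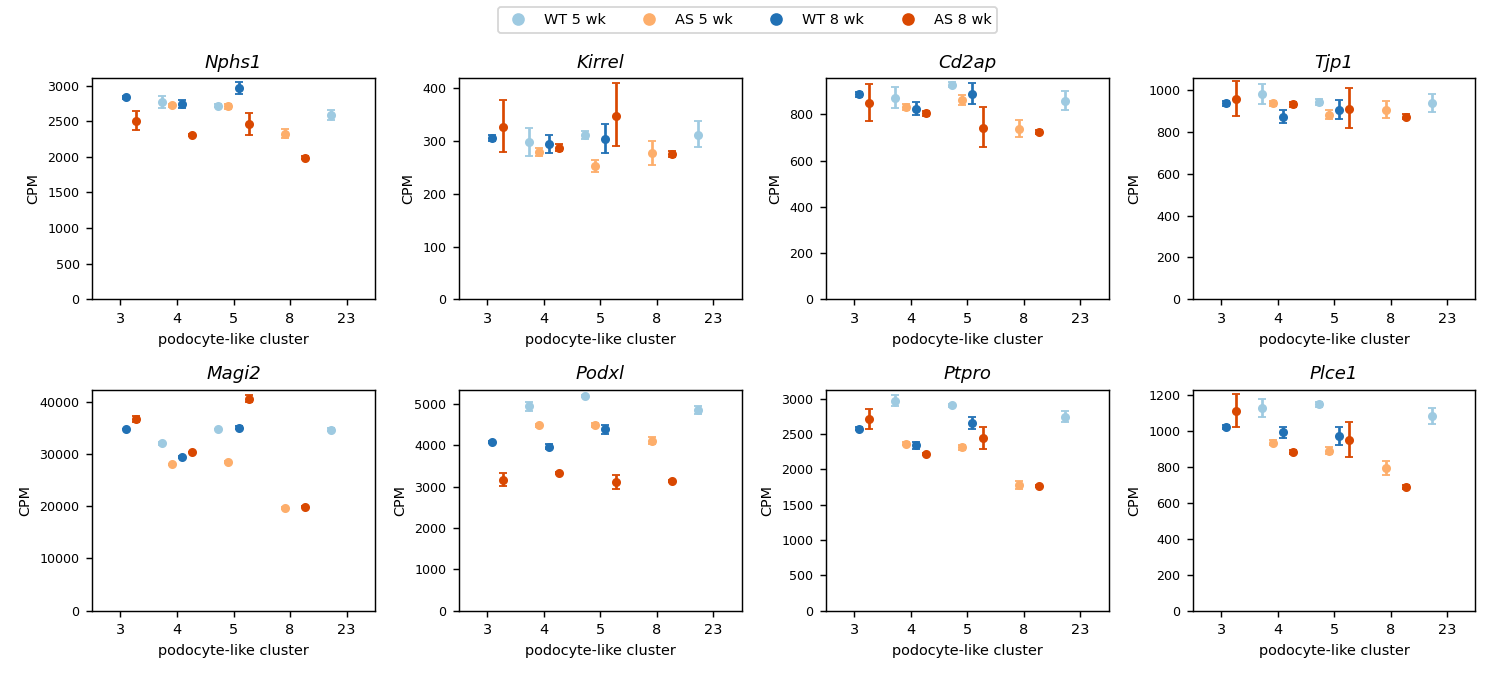
CPM of the 8 genes above the floor in each podocyte-like cluster (x axis, by number) and library (colour), for clusters and libraries with at least 50 cells and without the shallow cluster 17; bars are 95% intervals for counting error. Magi2, Ptpro and Plce1 are low in cluster 8 in both AS libraries, whereas Podxl follows the library and varies little among clusters.

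Outside podocytes, the 9 genes were of 3 kinds. Nphs1, Magi2, Ptpro and Plce1 were counted at a low share of the podocyte-like level in glomerular endothelial-like and mesangial-like cells, compared here with podocyte markers that these cells should lack. In endothelial-like cells (2456, 3188, 944 and 2386 cells), Nphs1 was at 0.575, 0.675, 4.0 and 1.22% of its podocyte-like level, Magi2 at 0.455, 0.616, 3.62 and 0.401%, Ptpro at 0.834, 0.892, 4.81 and 1.12% and Plce1 at 0.512, 0.658, 4.16 and 0.838%. The median of the 12 podocyte markers there was 1.23, 1.60, 5.61 and 2.63%. Outside WT at 8 weeks, Nphs1, Magi2 and Plce1 lay below the lowest of the 12 markers, which was at 0.844, 0.729 and 1.64% in the other 3 libraries. In each gene, as in the markers, the WT library at 8 weeks was the high one. In mesangial-like cells (677, 905, 167 and 1230 cells), Nphs1 was at 0.895, 0.49, 4.27 and 0.901%, beside marker medians of 1.42, 1.04, 5.36 and 1.51%. Ptpro was there at 1.15, 0.691, 6.55 and 1.17% and Plce1 at 1.19, 0.734, 6.64 and 1.07%, both above the marker median in WT at 8 weeks only. Magi2, at 1.79, 1.4, 8.1 and 2.43%, lay above it in each library but below the highest marker. The markers spread widely, and no expression in those cells is read from any of these 4 genes. Without the 10% of cells with the most podocyte marker UMIs in each class, Magi2 in endothelial-like cells of WT at 8 weeks was at 0.906% in place of 3.62%.

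In those cells the same genes differed between genotypes together with the podocyte markers. At 8 weeks, Nphs1, Magi2, Ptpro and Plce1 were past 1.5-fold lower in AS endothelial-like cells, where 2.57% of 7586 genes were, and Magi2 was at 1235 CPM in WT and 99.5 in AS. The same 4 and Podxl were past it in mesangial-like cells, where 3.26% of 7611 genes were. At 5 weeks none was in endothelial-like cells, where 1.01% of genes were lower, and Nphs1, Magi2 and Ptpro were in mesangial-like cells, where 1.55% were. The podocyte marker medians were lower in AS in the same 3 comparisons, and their part in these ratios was not tested.

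Podxl, Cd2ap and Tjp1 were counted in endothelial-like cells far above that background. Podxl, also known as an endothelial surface sialomucin, stood at 1149.8 CPM (WT, 5 weeks), 1199 (AS, 5 weeks), 1400.0 (WT, 8 weeks) and 1106 (AS, 8 weeks) in endothelial-like cells, which is 22.3, 26.9, 34.4 and 34.3% of the podocyte-like level. Mesangial-like cells had 1.72, 1.62, 7.05 and 1.88%, close to the podocyte markers. Its AS over WT log2 ratio in endothelial-like cells was 0.06 (0.03 to 0.09) at 5 weeks and -0.34 (-0.37 to -0.30) at 8 weeks, so the WT library at 8 weeks stood highest there and not in podocytes. The podocyte marker median in endothelial-like cells at 8 weeks was also higher in WT (5.61%) than in AS (2.63%). The part of that background in the Podxl ratio was not tested. Tjp1 had 51.6, 53, 59.2 and 57.5% of its podocyte-like level in the endothelial class, and in the mesangial class 36.4, 38.7, 45.2 and 40.1%. Cd2ap had 21.4, 24, 23.3 and 25.5% in the endothelial class, and in the mesangial class 36.5, 38.3, 36.3 and 39%. The Tjp1 and Cd2ap shares differed little among the libraries.

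Kirrel and Trpc6 marked the mesangial side. Kirrel was at 0.739, 0.931, 4.45 and 1.62% of its podocyte-like level in endothelial-like cells, with the podocyte markers, but at 43, 39.4, 40.7 and 36.4% in mesangial-like cells, or 134 CPM (WT, 5 weeks), 107 (AS, 5 weeks), 124 (WT, 8 weeks) and 103 (AS, 8 weeks). There AS over WT was -0.31 (-0.39 to -0.22) and -0.26 (-0.43 to -0.08). Trpc6 was counted mainly outside podocytes, in mesangial-like cells at 301 CPM (WT, 5 weeks), 273 (AS, 5 weeks), 254 (WT, 8 weeks) and 216 (AS, 8 weeks), and a UMI of it was seen in 81.4, 80.8, 70.7 and 69.9% of mesangial-like cells. AS lay below WT at each age, with log2 ratios of -0.13 (-0.19 to -0.08) and -0.23 (-0.35 to -0.11), both short of 1.5-fold. Expressed as a share of the mesangial-like level, Trpc6 in podocyte-like cells was at 0.268, 0.922, 0.229 and 1.27%. The 8 mesangial markers were there at medians of 0.238, 0.276, 0.188 and 0.431%, with Pdgfrb the highest, at 1.59, 2.9, 2.97 and 4.45%. Trpc6 lay close to the marker median in both WT libraries. In both AS libraries it lay above every mesangial marker except Pdgfrb, at 0.92% (0.73 to 1.14) and 1.27% (1.08 to 1.48). The marker next below Pdgfrb was Serpine2 at 0.32% in AS at 5 weeks and Hopx at 0.57% in AS at 8 weeks. At least 2 Trpc6 UMIs were seen in 4, 18, 5 and 35 podocyte-like cells, with at most 3, 8, 3 and 5 in a cell. In AS at 8 weeks, the 109 podocyte-like cells with a Trpc6 UMI had a median of 43417 UMIs and 2 mesangial marker UMIs, against 19764 and 1 in cells without. By cluster, Trpc6 in that library was at 4.13 CPM in cluster 8 (137 UMIs) and 1.17 in cluster 4 (32 UMIs). In AS at 5 weeks it was at 7.89 CPM in cluster 8 (17 UMIs) and 2.57 in cluster 4 (57 UMIs). All these values are under the floor, and the part of mixed cells or of cluster in the AS values was not tested.

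**Figure D4:**
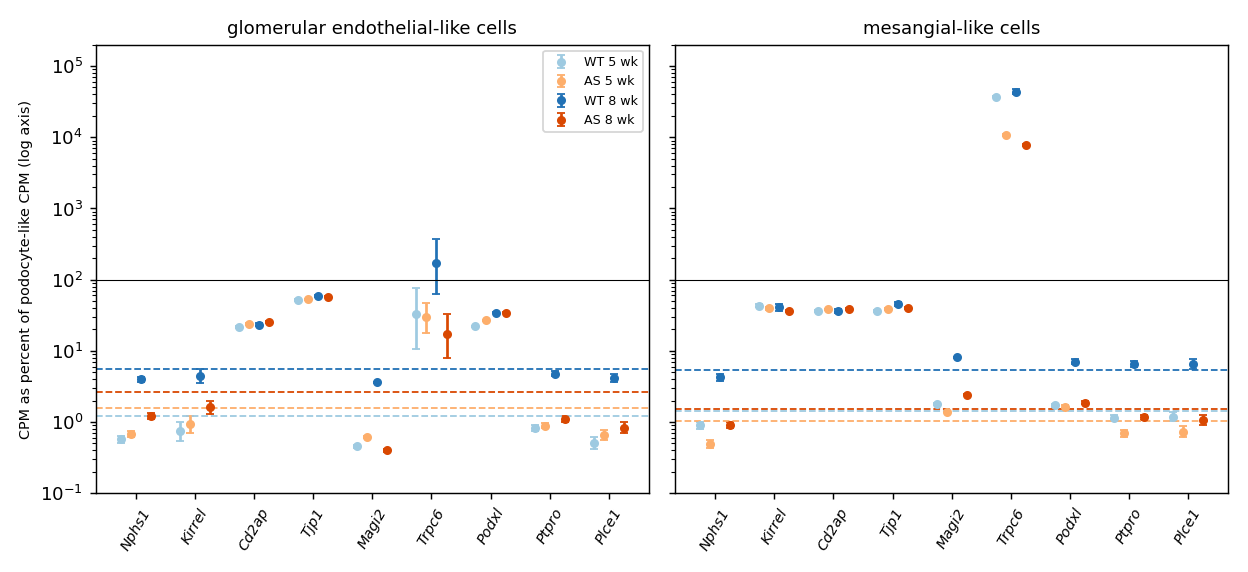
CPM of each gene in glomerular endothelial-like cells (left) and mesangial-like cells (right) as percent of its podocyte-like CPM in the same library, on a log axis, with intervals for the counting error of the numerator; dashed lines are the medians of 12 podocyte markers per library. Nphs1, Magi2, Ptpro and Plce1 lie near or below the dashed lines, Cd2ap and Tjp1 far above them in both classes, Podxl in endothelial-like cells, and Kirrel and Trpc6 in mesangial-like cells.

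Unnamed clusters added a further place for Plce1 and Trpc6. In cluster 10, led by Ren1, Myh11 and Acta2, genes of renin cells and arteriolar smooth muscle, Plce1 was at 442, 530.3, 543 and 608 CPM (69, 143, 261 and 75 cells). Nphs1 there was at 15.2, 14.9, 116 and 22.4 CPM, so Plce1 did not follow the podocyte background in that cluster. Trpc6 was at 330.4, 352, 341 and 392 CPM in the same cluster. In cluster 12, led by Tenm2, Thsd4 and Ephx3, Trpc6 at 8 weeks was at 305 CPM for WT (308 cells) and 311 for AS (69 cells).

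From cell to cell, the genes of the complex varied together to unequal degrees. Correlations were taken within each library over podocyte-like cells thinned to 5000 UMIs (1514, 1420, 2446 and 2186 cells), on log2(UMI + 1), for the 8 genes other than Trpc6. Cells of a library share its preparation and sequencing, so these values are descriptions. The median Pearson r over the 28 gene pairs was 0.090, 0.099, 0.098 and 0.17, whereas over the 5502900 pairs of 3318 genes the median lay near 0 and the 95th percentile at 0.052, 0.053, 0.048 and 0.074. Of the 28 pairs, 11, 14, 14 and 21 were above 0.1, and 0.434, 0.386, 0.485 and 2.44% of all pairs were. The pairs of all genes were not matched to the 8 genes on abundance.

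Without correction for counting noise, Magi2 was in the highest pair of each library, and in most of the next. It had r of 0.41, 0.41, 0.42 and 0.59 with Ptpro, 0.28, 0.34, 0.33 and 0.50 with Plce1 and 0.20, 0.25, 0.29 and 0.50 with Nphs1. Ptpro and Plce1 were at 0.23, 0.20, 0.25 and 0.37. In all 4 of these pairs the AS library at 8 weeks had the highest r. With Malat1 and the ribosomal protein share of each cell held fixed, Magi2 with Nphs1 was at 0.02, 0.08, 0.03 and 0.17, Magi2 with Ptpro at 0.24, 0.26, 0.18 and 0.30, and Magi2 with Plce1 at 0.16, 0.25, 0.14 and 0.22. Podxl varied little with Cd2ap, at -0.06, 0.02, -0.07 and -0.01, and with Tjp1, at -0.07, -0.04, -0.02 and 0.06. Its highest r was with Nphs1, at 0.16, 0.10, 0.20 and 0.23. As a mean over the other genes of the 8, Podxl had the lowest r at 5 weeks (0.044 in WT and 0.041 in AS). At 8 weeks Cd2ap had the lowest (0.031 in WT and 0.072 in AS). The paired proteins of the slit, Nphs1 and Kirrel, were at 0.04, 0.08, 0.08 and 0.12, weak values in sparse counts, with a median of 1 Kirrel UMI per thinned cell. With counting noise taken out of r, Nphs1 with Kirrel was at 0.15, 0.34, 0.44 and 0.51. Magi2 with Ptpro was then at 0.50, 0.56, 0.52 and 0.69, and the highest pair differed between libraries. At 5 weeks it was Magi2 with Ptpro in WT and Magi2 with Plce1 in AS (0.63). At 8 weeks it was Kirrel with Plce1 in WT (0.58) and Kirrel with Magi2 in AS (0.77).

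The spread among cells was widest in AS at 8 weeks for 7 of the 8 genes, and for Kirrel it was narrowest there. With counting noise taken out, the coefficient of variation of Magi2 among cells was 33.9, 36.4, 34.6 and 56.9%, and that of Nphs1 23, 22.5, 24.1 and 34.2%. Podxl was at 23.3, 21.8, 28.1 and 30.2%, and Kirrel at 27.7, 33.1, 27 and 25.9%. In the AS library at 8 weeks, the lowest 10% of cells had 42 thinned Magi2 UMIs or fewer and the median cell 122, against 96 and 160 in WT of that age. The 90th percentiles were closer, at 216.5 and 239, so the libraries differed most on the low side.

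**Figure D5:**
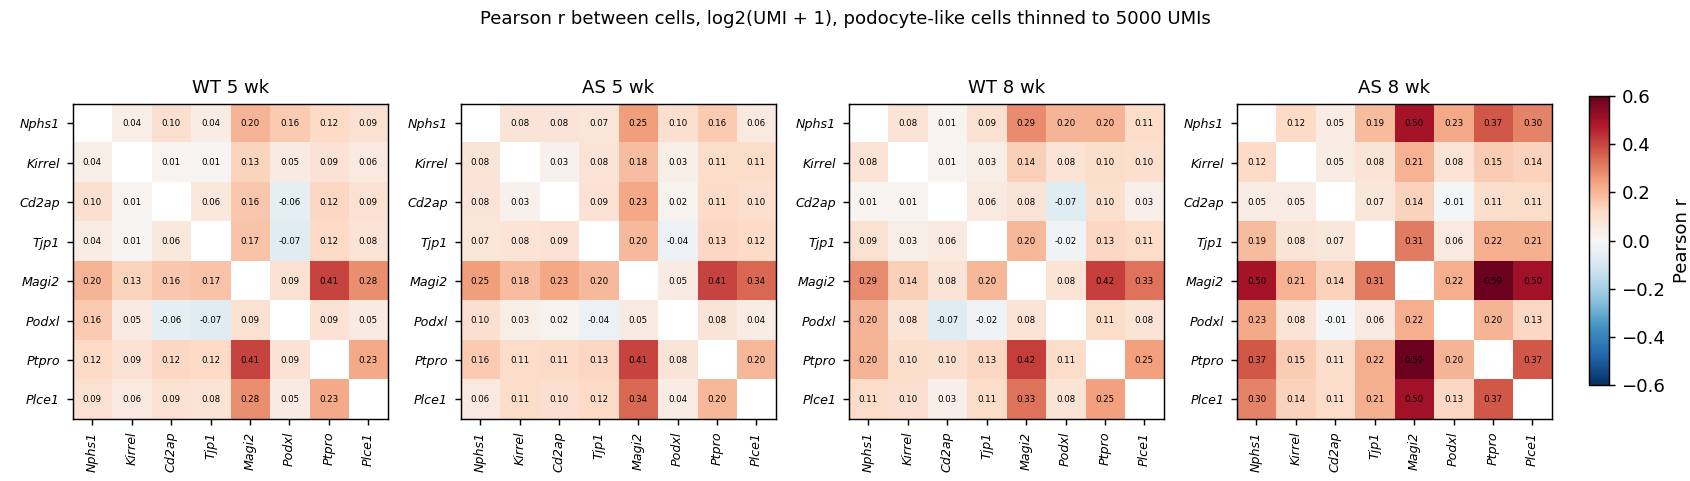
Pearson r between 8 genes over podocyte-like cells of each library, with cells thinned to 5000 UMIs and counts as log2(UMI + 1). The r shown are not corrected for counting noise. By them, Magi2 with Ptpro is the highest pair in each library, up to 0.59 in AS at 8 weeks, and Podxl with Cd2ap or Tjp1 lies near 0 or below.

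The log2(UMI + 1) values of the 8 genes other than Trpc6, summed in each thinned cell, went with other properties of that cell. Against the 39-gene list of slit diaphragm partners, junction and polarity genes, r was 0.48, 0.56, 0.52 and 0.72. Against ribosomal protein genes it was -0.50, -0.50, -0.54 and -0.57, the most negative of the measures compared. Against the injury list it was -0.12, -0.17, -0.21 and -0.42, most negative in AS at 8 weeks, and against immediate-early genes, which respond to cell stress and to dissociation, -0.19, -0.14, -0.22 and -0.27. Single genes differed in this: against the injury list in AS at 8 weeks, Magi2 was at -0.47 and Kirrel at -0.08. Genes most like the summed level, by r averaged over the 4 libraries, were Pard3b, a polarity gene of the Par complex (0.55), Malat1 (0.53), Thsd7a (0.45), Zbtb20 (0.42), Dach1 (0.41), Srgap1 (0.37), Kcnq1ot1 (0.37) and Zfp385b (0.36). The least like were Myl6 (-0.40), Tmsb4x (-0.39), Ubb (-0.39), Ppia (-0.37), Fth1 (-0.36), Eef1a1 (-0.34), Cryab (-0.34) and Itm2b (-0.33). Thsd7a and Dach1 are among the 12 podocyte markers, Malat1 and Kcnq1ot1 are nuclear RNAs, and several of the least like genes make abundant short cytoplasmic messages. With the Malat1 level and the ribosomal protein share of each cell held fixed, the median pair r was 0.025, 0.060, 0.042 and 0.073.

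Single genes had their own nearest genes. Magi2 was most like Malat1 (mean r 0.67), Pard3b (0.66) and Thsd7a (0.52), and Ptpro, Plce1 and Tjp1 were most like the same 3 genes. For Tjp1 these values were low, 0.20 with Pard3b, 0.18 with Malat1 and 0.16 with Thsd7a. Nphs1 was most like Malat1 (0.34), Col4a3 (0.25), a chain of the type IV collagen network to which Col4a5 belongs, and Pard3b (0.22). Kirrel was most like Pard3b (0.15), Malat1 (0.12) and Dock4 (0.11), and Cd2ap most like Thsd7a (0.15), Pard3b (0.13) and Dach1 (0.11). Podxl had a mean r of 0.0083 with Malat1, and its nearest genes given here were the podocyte surface peptidase Enpep (0.25) and Sema3g (0.24).

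Other genes of the same pathways were counted in podocyte-like cells by lists, beside the shares over all genes of 2.22% higher and 1.43% lower at 5 weeks and 4.04% higher and 3.29% lower at 8 weeks. Of the 39 partners, junction and polarity genes, 29 passed the floor, none was past 1.5-fold at 5 weeks, and at 8 weeks 1 was higher and 2 lower in AS. The medians over those that passed were -0.18 and -0.19. Mpp5 (Pals1), a Crumbs complex scaffold, was at 1080.3 CPM in WT and 642 in AS (log2 ratio -0.75) at 8 weeks, and Dlg5 at 96.9 CPM in WT and 53.1 in AS (log2 ratio -0.81). Pik3r1, a regulatory subunit of PI3-kinase, was the higher one, at 60.5 CPM in WT and 106 in AS (log2 ratio 0.76). Fyn, the kinase that phosphorylates nephrin, was at 386 CPM in WT and 264 in AS (log2 ratio -0.54), short of 1.5-fold. Of 12 genes of the podocalyxin and ezrin apical complex, 9 passed the floor at 5 weeks and 10 at 8 weeks, none past 1.5-fold, with medians of 0.17 and 0.14, the opposite sign to Podxl. The podocalyxin linkers Slc9a3r1 and Slc9a3r2 had log2 ratios of 0.39 and 0.25 in the younger mice, then 0.18 and 0.00 in the older, Msn, which links membrane to actin, at 0.20 and 0.55, and Rhoa at 0.18 and 0.27.

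Of 30 actin regulators of the foot process, 23 passed the floor, with none past 1.5-fold at 5 weeks and 1 higher and 1 lower at 8 weeks, and medians of -0.14 and -0.071. Flna, the actin cross-linker filamin A, was at 17.5 CPM in WT and 41.4 in AS (log2 ratio 1.05) at 8 weeks and Coro2b at 223 CPM in WT and 129.5 in AS (log2 ratio -0.76), whereas Dlc1 was at 0.48 and 0.32 and Actn4 at -0.11 and 0.43 at the 2 ages. Of 28 calcium, phospholipase and calcineurin genes, the pathway of Trpc6 and Plce1, 15 passed the floor and 1 was higher and 1 lower at each age, with medians of -0.079 and -0.040. The higher one was Rcan2, a calcineurin regulator, at 13.4 CPM in WT and 107 in AS (log2 ratio 2.61) in the younger mice and 16.7 CPM in WT and 258 in AS (log2 ratio 3.60) in the older. The lower one was the calcium release channel Itpr3, at 129 CPM in WT and 79.2 in AS (log2 ratio -0.66) and 101 CPM in WT and 42.1 in AS (log2 ratio -1.17). Rcan1 was at 0.24 and 0.40, and Nfatc3 at -0.34 and -0.36.

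Of 16 other protein tyrosine phosphatases, the family of Ptpro, 12 passed the floor at 5 weeks and 11 at 8 weeks and none was past 1.5-fold, with medians of -0.11 and -0.16. Ptprk was at -0.55 and -0.56, Ptpn13 at -0.31 and -0.51, Ptprd at -0.22 and -0.40, and Ptprs at -0.40 at 5 weeks. Of 15 podocyte transcription factors, 12 passed, with medians of -0.13 and -0.27, and 1 was lower at 8 weeks: Lmx1b, at 328 CPM in WT and 206 in AS (log2 ratio -0.66). Wt1 was at -0.33 and -0.56, Klf6 at -0.15 and -0.38, and Zhx2 at -0.15 and -0.38. Of 19 injury genes, which were chosen with earlier results of these libraries known, 5 of 7 were higher at 5 weeks, and 8 of 10 were higher and 1, Acta2, lower at 8 weeks, with medians of 1.33 and 2.32 over those that passed. Acta2, a smooth muscle gene, was at 22.2 CPM in WT and 7.43 in AS (log2 ratio -1.13) and was named after its value was seen. Tagln was at 23.2 CPM in WT and 594 in AS (log2 ratio 4.41) at 8 weeks, S100a6 at 8.82 CPM in WT and 297 in AS (log2 ratio 4.45), Ccn1 at 13.2 CPM in WT and 135 in AS (log2 ratio 2.94) and Ccn2 at 77.2 CPM in WT and 609 in AS (log2 ratio 2.90). Of 16 immediate-early genes, 3 of 7 were higher at 5 weeks and 6 of 9 at 8 weeks, with medians of 0.30 and 0.76, among them Egr1, at 5.25 CPM in WT and 62.5 in AS (log2 ratio 2.72), Junb at 1.80, Fos at 1.71, and Ier3 at 1.38 at 5 weeks. Both lists also differed between the WT libraries of 8 and 5 weeks, where 2.33% of all genes were past 1.5-fold. There, 3 of 6 injury genes were higher at 8 weeks, with a median of 0.65. Of the immediate-early genes, 2 of 5 were higher, with a median of 0.32. In podocyte-like cells with an immediate-early share at or under the median, the median ratio of the 9 genes was -0.20 at 5 weeks and -0.18 at 8 weeks.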

How the data were processed

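The authors deposited unnormalized UMI counts for each barcode and gene; per the file headers they come from Cell Ranger 9.0.0. Base calling (bcl2fastq 2.20.0), alignment (STAR 2.7.2a) and the build (GRCm38, mm10) are named in the submitters' processing notes, and the kit was Chromium 3′ version 2 per the labels' protocols. Barcodes were kept from 500 genes and 1000 UMIs upward where mitochondrial UMIs did not exceed 20%, and Scrublet (expected rate 6%) removed 2.86 to 6.58% per library. Cells were clustered jointly with scanpy 1.11.5 (1998 variable genes without the 9 genes, 30 components, 15 neighbours, Leiden resolution 1, 29 clusters). Clusters were named from marker lists with a lead of 1 log2, otherwise left unnamed. UMIs were summed per class and library, and ratios used a pseudocount of 5 CPM and a floor of 30 UMIs and 20 CPM. Intervals are exact Poisson, binomial or conditional binomial, covering counting error only. The ratio calculation and the correction of r for counting noise were run on simulated Poisson counts. These simulations held no thinning and no variation between animals or libraries. All 9 genes are named throughout, with the 4 genes of each list that had the largest absolute ratio, the 3 genes most like each member, and the 8 most and least like the sum. Some genes this rule names are not reported here. Members and lists were chosen with earlier results of these data known. Alternatives in scaling, floor, clustering, gating, thinning, free RNA and reference library were computed.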

Additional observations from a re-analysis of the deposited data

Results flagged for a closer look

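Nphs1 in podocyte-like cells had ratios of opposite sign with age in the 2 genotypes. From 5 to 8 weeks its log2 ratio was 0.06 between the WT libraries and -0.33 between the AS libraries. Over all genes tested the medians were 0.053 and 0.0082, so the WT value is close to that of the median gene. Each side is 1 library against 1 library, so the difference was not tested.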

How the results depend on the processing

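Of the alternatives run, 1 moved the count of genes past 1.5-fold, from 0 to 1 at 8 weeks when WT of the other age was the reference. The median log2 ratio stayed below 0 in every alternative. At 5 weeks it was -0.24 with thinned cells, -0.25 with free RNA subtracted and -0.077 with the other WT library. At 8 weeks it was -0.24 with median-of-ratios scaling, -0.31 at resolution 2, -0.29 with cell-by-cell gating, -0.26 as a mean of each cell's CPM, -0.31 with thinned cells, -0.018 with free RNA subtracted, -0.18 in cells of low immediate-early share, -0.38 without abundant RNAs in the total, and -0.35 over the 8 genes above the floor, the last pair of alternatives being chosen after seeing the data. The cause of each shift was not tested. Free RNA came from only 35 B, T and NK-like cells in WT at 8 weeks. Signs turned beyond the counting interval at 8 weeks for Tjp1 (0.051 by median-of-ratios, 0.23 with free RNA subtracted, 0.033 at low immediate-early share), Kirrel (0.20) and Cd2ap (0.048) with free RNA subtracted, and Trpc6, under the floor (-0.20 with gating), and at 5 weeks for Podxl (0.13 with the other WT library). Nphs1 at 5 weeks was above 0 in 2 of 15 alternatives, up to 0.0051. Median pair r with all UMIs was 0.24, 0.30, 0.19 and 0.28. No paired analysis was possible because each group has 1 library.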
